A study of Saccharomyces cerevisiae with 28 samples.

Results

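The guide RNAs directed at the genes of the yeast mating pheromones, their receptors and the proteins that process and export them were followed through 28 libraries of guide reads. The 10 genes were MFA1 (YDR461W), MFA2 (YNL145W), MF(ALPHA)1 (YPL187W), MF(ALPHA)2 (YGL089C), STE2 (YFL026W), STE3 (YKL178C), STE6 (YKL209C), STE13 (YOR219C), KEX1 (YGL203C) and KEX2 (YNL238W). A guide was taken as a member where the study's own guide lists for the activation screens named one of these genes as its target. Those lists were selected on the counts of the same screens, so the values of a guide in the screen that listed it are given as a description, with no test. Of the 40890 guides of the pool, 2278 had a named target in the rows used and 1999 (4.89%) a listed position. Other guides of these genes may therefore be in the pool without being identified here. Among the named guides the rule found 3, 1 each for MFA1, MF(ALPHA)1 and STE3. A further 3 guides, a second one for MF(ALPHA)1 and 1 each for MF(ALPHA)2 and STE13, were placed by their listed position upstream of the gene and not by any count. Guides of MFA2, STE2, STE6, KEX1 and KEX2 were not analysed here, since none was named or placed in the rows used.

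All libraries came from Ethanol Red, a diploid industrial strain of Saccharomyces cerevisiae, carrying a codon-optimised fungal α-amylase gene (AnAmy6) at the HO locus. Each cell held a plasmid with a guide RNA induced by anhydrotetracycline and a nuclease-null dCas9 driven by the constitutive TEF1 promoter, fused to the activator VPR in the activation library or to the repressor Mxi1 in the repression library. Droplets holding cells and a fluorogenic starch substrate were sorted into a bright high fraction and the remaining low fraction, and guides were counted after overnight outgrowth of the sorted cells. The early activation screen gave 2 high and 2 low libraries, the main activation screens (rounds 2 to 5) gave 8 and 8, and the main repression screens (rounds 1 and 2) gave 4 and 4. There was no sample without a guide or without dCas9, neither the transcripts of these genes nor the amylase made under any 1 guide was measured, and the strain's mating type was not given in the sources used here.

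Budding yeast has a pair of haploid mating types that signal to each other with peptides. Cells of mating type a secrete a-factor, a short lipid-modified peptide encoded by MFA1 and MFA2 and exported by the ABC transporter Ste6, and they carry Ste2, the receptor for alpha-factor. Cells of mating type alpha secrete alpha-factor, encoded by MF(ALPHA)1 and MF(ALPHA)2 and carried through the secretory pathway as a precursor that Kex2, Kex1 and Ste13 trim in the Golgi, and they carry Ste3, the receptor for a-factor. The prepro-leader of alpha-factor is widely used to direct foreign proteins out of yeast cells. In diploids of mating type a/alpha the genes of the pheromones, of their receptors and of Ste6 are normally silent.

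The guide sequences are shown because every count below is a count of 1 of these exact strings. They are written 5′ to 3′, with the 10 bases next to the PAM, which matter most for pairing, in capitals.
MFA1 guide: ggtcttttctTTTGGAGCGG
MF(ALPHA)1 guide 1: gactggagcaGCTAATGCGG
MF(ALPHA)1 guide 2: agaacagtaaCATTTTTGAT
MF(ALPHA)2 guide: ttctaggaatGCGTTTGATA
STE3 guide: gggagccagaACGCTTCTGG
STE13 guide: tacattagcgTTAGAAAATC
The guides differed widely in base composition. GC content was 65.0% for the STE3 guide, 60.0% for MF(ALPHA)1 guide 1 and 50.0% for the MFA1 guide. It was 35.0% for the MF(ALPHA)2 guide, 30.0% for the STE13 guide and 25.0% for MF(ALPHA)1 guide 2. The longest run of thymines, a signal that can end transcription by RNA polymerase III, was 5 bases in MF(ALPHA)1 guide 2 and 4 bases in the MFA1 guide. No other guide of the pool came closer to any of the 6 than 5 mismatches, so reads of 1 guide are not easily assigned to another.

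Gene positions were taken from the RefSeq annotation of R64, the assembly behind the sacCer3 build that the submitters name. MFA1 lay on chromosome IV from 1385176 to 1385286 on the plus strand, and STE3 on chromosome XI from 113215 to 114627 on the minus strand. MF(ALPHA)1 lay on chromosome XVI from 193648 to 194145 on the plus strand, and MF(ALPHA)2 on chromosome VII from 344791 to 345153 on the minus strand. STE13 lay on chromosome XV from 752214 to 755009 on the minus strand. Only coding genes were searched, though the pool also targets non-coding transcripts, so the intended target of a guide placed by position is not known. MF(ALPHA)1 guide 2 was listed 107 bp before the start codon of its gene, with no other start codon within 500 bp. The MF(ALPHA)2 guide was listed 449 bp before its start codon and also 234 bp before that of YGL088W. The STE13 guide was listed 312 bp before its start codon but only 7 bp before that of RCN2, so either gene could be the one addressed. Which base of a guide the listed position refers to was not stated, and no position was listed for the guides of MFA1 and STE3 or for MF(ALPHA)1 guide 1.

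Libraries held 50433 to 3359719 reads, and the smallest was the low library of round 2, replicate 2 of the main activation screens. High libraries were poorer in guides than low ones, with 3585 to 5958 guides seen in the main activation screens against 5128 to 11382, and 6362 to 9937 against 18248 to 20701 in the repression screens. The relative log expression (RLE) factors that the fit uses for scaling followed this gap, at 0.0304 to 1.08 in high and 3.12 to 10.6 in low libraries of the main activation screens. In the repression screens the high library of round 2, replicate 2 stood apart at 0.0349, against 1.70 to 1.82 in the low libraries. Reads come from PCR without molecular identifiers and from cells that had grown after sorting, so intervals cover counting error only. Nothing in the labels says that libraries of a fraction came from separate cultures, and p-values then measure only the spread between these libraries.

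The a-factor gene MFA1 had the guide with the most reads, 117735 in all, and the only 1 of the 6 that was seen in every library. In the high libraries of the main activation screens it gave 5 and 28 reads in round 2 (replicates 1 and 2), 16153 and 2162 in round 3, 61 and 37 in round 4, and 80782 and 3 in round 5. The matching low libraries gave 72 and 5 reads in round 2, 25 and 149 in round 3, 1386 and 243 in round 4, and 1827 and 399 in round 5. By share of reads, 3 high libraries lay above every low library and 4 lay below every low library.

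As counts per 1000000 reads of the library (CPM), the MFA1 guide ranged from 1.43 to 33907 in the 8 high libraries with a median of 81.9, and from 70.1 to 949 in the 8 low libraries with a median of 257. It made up 3.39% of the high library of round 5, replicate 1 (95% Wilson interval 3.37% to 3.41%), where only 3 guides had more reads. In round 3, replicate 1 it made up 1.84% (1.81% to 1.86%) and ranked 7. These 2 libraries held 97.7% of its high-fraction reads, and the other 6 high libraries held 2296 reads together. Its share was higher in the high than in the low library of the same sort in 4 of 8 sorts, by 261.8-fold in round 3, replicate 1 and by 45.7-fold in round 5, replicate 1. It was lower in the other 4 sorts, by 252.8-fold in round 5, replicate 2. The groups overlapped, and the spread of the high libraries was wider than their mean, at 6794 ± 12655 CPM against 354 ± 324 CPM in the low libraries (SD, n = 8 each).

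The study's list of the main activation screens named this guide, so its fitted value there is a description. The edgeR fit gave a log2 fold change of high over low (log2 FC) of 10.97 with a standard error of 2.32, which ranked 20 among 1166 guides tested. The median log2 FC of all guides tested in those screens was 4.68, so the guide stood 6.30 above that median. Without replicate 1 of rounds 3 and 5 the log2 FC was 5.10, which was 0.47 above the median of that fit. With library sizes alone in place of RLE factors it was 3.48, against a median of all guides of -0.60.

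The same MFA1 guide was measured in 2 screens that did not choose it. In the early activation screen replicate 1 gave 3 reads in the high and 555 in the low library, and replicate 2 gave 1868 and 786. The shares thus moved in opposite directions, 184.7-fold lower in the high library of replicate 1 and 1.69-fold higher in replicate 2. The log2 FC was 1.47 (SE 3.23, adjusted p = 0.740 by edgeR's likelihood ratio test). Of the 3215 guides tested in the early screen 0 were called enriched (0%) and 0 depleted (0%) at an absolute log2 FC above 3 and an adjusted p below 0.05. At an unadjusted p below 0.05 the counts were 112 and 910, and DESeq2 called 233 and 908. The MFA1 guide and MF(ALPHA)1 guide 2 were the 2 members open to a test there, and neither passed.

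In the repression screens the MFA1 guide was abundant and even. The high libraries gave 3194 and 812 reads in round 1 and 683 and 1166 in round 2, and the low libraries gave 1928 and 1262 in round 1 and 966 and 1175 in round 2. This was 254.6 to 954 CPM in the high and 436 to 603 CPM in the low libraries, with 1 of 4 sorts higher in the high fraction. The pooled high over low ratio of shares was 1.00 (exact 95% interval 0.967 to 1.04). The fitted log2 FC was 3.44 (SE 1.78, adjusted p = 0.193), and it was 0.14 without round 2, replicate 2. The guide did not pass the test, in a screen where 720 of 13403 guides were enriched (5.37%) and 1812 depleted (13.5%). The second a-factor gene, MFA2, had no guide in the rows used.

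The alpha-factor gene MF(ALPHA)1 had 2 guides identified, guide 1 by name and guide 2 by position alone. Both were scarce in most high libraries of the activation screens, the direction in which most guides leaned (shares below). Guide 1 was named in the early list. In the early screen it gave 1 read in each high library, against 597 and 27 reads in the low libraries of replicates 1 and 2. The groups did not overlap, as for 47.7% of the 3215 guides tested, whose high libraries were both below both low libraries in CPM. Its pooled share was 349.7-fold lower in the high fraction (exact 95% interval 96.4 to 2894), but 596.1-fold in replicate 1 and 37.9-fold in replicate 2, each against a single read. Its log2 FC was -4.40 (SE 2.92), a description because the early list chose the guide.

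In the main activation screens guide 1 was left out of the fit by the filter on low counts. Its high libraries gave 2973 and 2 reads in round 2, 0 and 0 in round 3, 0 and 4 in round 4, and 1 and 2 in round 5. Its low libraries gave 557 and 4 in round 2, 1 and 18 in round 3, 1 and 0 in round 4, and 742 and 110 in round 5. The high fraction thus held this guide almost only in round 2, replicate 1, with 99.7% of its reads, and there the low library was also rich, at 1738 against 3035 CPM. The mean of log2(CPM + 1) was 2.27 ± 3.94 in the high and 4.80 ± 3.82 in the low libraries (SD, n = 8 each). The difference of -2.53 did not pass a two-sided exact permutation test (p = 0.215, 1 of 2 such tests given, the other being for guide 2). An exact sign-flip test, which pairs the high and low library of each sort, gave p = 0.0625. With each sort left out in turn the difference ranged from -3.13 to -1.78, and the exact permutation p from 0.0402, without round 2, replicate 1, to 0.421. The direction turned where wider filters took the guide into the edgeR fit. With a filter of more than 1 CPM in 8 libraries edgeR called it enriched, with a log2 FC of 4.22 (adjusted p = 0.0460), as it did 44.6% of the 3667 guides of that fit, whose median log2 FC was 2.91. With no filter the adjusted p was 0.201.

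Guide 1 was seen in all 8 libraries of the repression screens. The high libraries gave 304 and 325 reads in round 1 and 266 and 161 in round 2, and the low libraries gave 595 and 449 in round 1 and 456 and 444 in round 2. Every high library, at 59.9 to 144 CPM, was below every low library, at 165 to 284 CPM. The CPM of 2727 of the 13403 guides tested (20.3%) separated in the same way. The pooled share was 2.01-fold lower in the high fraction (exact 95% interval 1.87 to 2.17). The edgeR fit did not call this guide, and its log2 FC had the opposite sign at 2.02 (SE 1.38, adjusted p = 0.420). It was -1.07 with library sizes alone and -0.69 without round 2, replicate 2, the library with the outlying RLE factor.

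MF(ALPHA)1 guide 2 was placed by position, and no screen chose it. In the main activation screens its high libraries gave 0 and 1 reads in round 2, 2 and 3 in round 3, 1 and 0 in round 4, and 0 and 1 in round 5. Its low libraries gave 5 and 2 in round 2, 56 and 72 in round 3, 246 and 0 in round 4, and 287 and 161 in round 5. The guide was therefore all but missing from the high fraction, with 8 reads in 8 libraries against 829 in the low libraries. Its share was lower in the high library in 7 of 8 sorts, and the remaining sort had 0 reads in both. The highest high library, at 4.86 CPM, was below every low library that held the guide, at 15.6 to 168 CPM.

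The mean of log2(CPM + 1) for guide 2 was 0.90 ± 1.00 in the high and 5.47 ± 2.51 in the low libraries (SD, n = 8 each). The difference of -4.57 passed a two-sided exact permutation test that took the libraries as unpaired (p = 0.00171, where 0.000155 is the smallest p that test allows). An exact sign-flip test, which pairs the high and low library of each sort, gave a larger p of 0.0156. Leaving out each sort in turn gave differences of -5.22 to -4.24 and exact permutation p of 0.000583 to 0.00583. Most guides leaned the same way on this scale. Of the 20411 guides with a read in the main activation screens 86.1% had a lower mean in the high libraries, the median difference was -0.89, and 705 guides (3.45%) had a difference of -4.57 or below. Guides with a low-fraction mean under 4.57 could not reach that difference. The share therefore includes guides too scarce to do so, and guides of like abundance were not compared. The filter kept guide 2 out of the main fit, and under wider filters edgeR gave a log2 FC of -1.55 (no filter, adjusted p = 0.611) and made no call.

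Elsewhere guide 2 was mixed. In the early screen it gave 0 and 328 reads in the high and 63 and 145 in the low libraries of replicates 1 and 2, with a log2 FC of 1.51 (SE 2.89, adjusted p = 0.703). In the repression screens the high libraries gave 1208 and 991 reads in round 1 and 174 and 0 in round 2, and the low libraries gave 433 and 511 in round 1 and 363 and 502 in round 2. Its share was higher in the high library in both sorts of round 1, by 2.80-fold and 1.50-fold, and lower in both sorts of round 2. The log2 FC was 0.33 (SE 1.10, adjusted p = 0.956). The 2 guides of this gene shared low counts in most high activation libraries. Most guides leaned that way, since 86.1% of those with a read in the main activation screens had a lower mean in the high libraries. The 2 guides differed in the repression screens, where guide 1 was lower in the high library of 4 of 4 sorts and guide 2 of 2 of 4. The difference between the guides was not tested.

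The second alpha-factor gene, MF(ALPHA)2, had a guide with 0 reads in all 28 libraries. A count of 0 allows up to 0.893 to 59.5 CPM in a single library and 0.0643 CPM over all 46667520 reads. This was common in the pool, since 15453 of the 40890 guides (37.8%) had 0 reads throughout. The screens therefore held no measurement of this guide in either fraction.

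The a-factor receptor gene STE3 had 1 guide identified, named in the early list. In the early screen it gave 17 and 0 reads in the high and 97 and 33 in the low libraries of replicates 1 and 2. Both high libraries were below both low libraries in CPM, as for the 47.7% of guides given above. The log2 FC was 1.62 (SE 2.50) with RLE factors and -3.57 with library sizes alone, and these are descriptions.

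The main activation screens did not choose the STE3 guide. Its high libraries gave 32 and 1 reads in round 2, 1 and 3 in round 3, 3530 and 2 in round 4, and 1 and 4 in round 5. Its low libraries gave 78 and 1 in round 2, 0 and 1020 in round 3, 466 and 33 in round 4, and 179 and 94 in round 5. A single high library, round 4, replicate 1, held 98.8% of the high-fraction reads, at 1614 CPM, and the other 7 gave 0.420 to 32.7 CPM. The medians were 2.27 CPM in the high and 78.8 CPM in the low libraries. By share of reads the guide was higher in the high library in 2 of 8 sorts.

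The STE3 guide was called enriched in the main activation screens, with a log2 FC of 6.32 (SE 1.80, adjusted p = 0.00167 by edgeR's likelihood ratio test). The call was the same as for most guides that passed the filter, where 810 of 1166 tested were enriched (69.5%) and 39 depleted (3.34%). The guide stood 1.65 above their median log2 FC. Those shares depended on the filter. With more than 1 CPM in at least 2 libraries, 1983 of 14262 guides were enriched, with a median log2 FC of -0.94. The STE3 guide was still called there, at 6.26 (adjusted p = 0.0452). With no filter 1650 of 20411 guides were enriched, and the STE3 guide was not called (adjusted p = 0.0628). The call of the main fit ended without round 4, replicate 1, with a log2 FC of -0.07 (adjusted p = 0.949). It was also lost with library sizes alone, at -0.28 (adjusted p = 0.932), and with DESeq2, at 0.26 (adjusted p = 0.825). The STE3 guide was thus the only member whose call in these screens the lists had not chosen.

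Under repression the STE3 guide gave 377 and 871 reads in the high libraries of round 1 and 256 and 2 in those of round 2. The low libraries gave 926 and 372 in round 1 and 198 and 526 in round 2. Shares were higher in the high library in 2 of 4 sorts, by 1.81-fold in round 1, replicate 2 and by 1.13-fold in round 2, replicate 1. They were 262.7-fold lower in round 2, replicate 2. The groups overlapped, and the log2 FC of -0.12 (SE 1.00, adjusted p = 0.983) did not pass. The alpha-factor receptor gene, STE2, had no guide in the rows used.

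Of the processing and export genes, only STE13, which encodes the dipeptidyl aminopeptidase that trims the alpha-factor precursor, had a guide identified. It gave 76 reads in the low library of round 2, replicate 1 of the repression screens, which was 47.4 CPM, and 0 reads in the other 27 libraries. With reads in a single library no permutation of the libraries could pass a test, so none is given. The guide was not detectable in any high library, and the proteases KEX2 and KEX1 and the a-factor exporter STE6 had no guide in the rows used.

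Whether the high over low change differed between the activation and the repression library was fitted as an interaction over the 24 main libraries. Of the 14666 guides tested 582 (3.97%) passed an adjusted p of 0.05 in either direction, and the median difference was 0.71. The MFA1 guide had a log2 FC larger by 10.38 (SE 3.15) under activation, a description because the main activation list chose it. The difference for the STE3 guide was 6.73 (SE 2.89, adjusted p = 0.166). For MF(ALPHA)1 it was 4.79 for guide 1 (SE 2.92, adjusted p = 0.362) and -1.60 for guide 2 (SE 2.10, adjusted p = 0.788). The 3 guides open to the test did not pass it, and their standard errors of 2.10 to 2.92 leave room for large differences in either direction.

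Other genes of the pheromone pathway were read from a list of 29 that mature a-factor, degrade alpha-factor, relay the signal or respond to it. By name or position 14 guides of 8 of these genes were found, namely RCE1 and STE23 (a-factor maturation), STE18, STE20, STE11 and KSS1 (signalling) and AGA1 and AGA2 (the a-agglutinin subunits that let cells adhere in mating). All 5 of them in the early fit were named by the early list, so their values there are descriptions. They ran from -9.10 (SE 3.55) for STE20 guide 2 to 6.32 (SE 3.91) for AGA1 guide 2. In the main activation screens 2 were tested and 0 called, against the 69.5% enriched there, and 0 passed an unadjusted p of 0.05 or were called by DESeq2.

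The 2 pathway guides tested in the main activation screens were below the median of 4.68. The AGA2 guide had a log2 FC of 2.48 (SE 1.31, adjusted p = 0.0725) with 0 to 355 reads in the high and 5 to 782 in the low libraries. The guide of the kinase gene STE20 (guide 3) had 1.03 (SE 1.30, adjusted p = 0.447) with 2 to 360 reads in the high and 6 to 2518 in the low libraries. By share STE20 guide 3 was lower in the high library in 8 of 8 sorts. By mean log2(CPM + 1), 86.1% of guides with a read in these screens were lower in the high libraries. With library sizes alone STE20 guide 3 was depleted, at -4.79 (adjusted p = 0.00506), as were 276 of the 1166 guides of that fit.

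Under repression 11 pathway guides were tested, 1 was enriched (5.37% of all guides) and 1 depleted (13.5% of all guides), so neither share stood clear of the whole pool's. Their median log2 FC was 1.47 against 0.01 over all guides. The depleted guide was placed 301 bp before STE23, a protease gene with a part in a-factor maturation, and also 105 bp before ECM19. It gave 0 reads in each of the 4 high libraries and 120, 252, 79 and 161 reads in the low libraries of round 1, replicates 1 and 2, and round 2, replicates 1 and 2. Its share was at least 223.2-fold lower in the high fraction, with a floor of 3 reads over the group, and edgeR called it depleted (adjusted p = 0.000695). With 0 high-fraction reads the guide passed the low-count filter through its low libraries alone, so the call is a description. The enriched guide was AGA1 guide 3, placed 425 bp before the start codon, with a log2 FC of 8.73 (SE 2.92, adjusted p = 0.0206). Of its high-fraction reads 98.9% came from round 2, replicate 2, with 8232 reads against 13, 80 and 2 in the other high libraries, and without that sort its log2 FC was -2.94 (adjusted p = 0.492). The call was also lost with edgeR's quasi-likelihood test (adjusted p = 0.252), TMM factors (0.0643) and library sizes alone (0.356).

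The guides whose profile over the 16 main activation libraries was most like that of the MFA1 guide were those named for SUT230, a stable unannotated transcript (Pearson r of log2(CPM + 1) = 0.66), ZDS1 (0.59) and RVS161 (0.54), among 694 guides compared with a median r of -0.10. Each of the 3 had its highest high-fraction count in round 5, replicate 1, as the MFA1 guide did, with 85.9%, 99.7% and 96.6% of its high-fraction reads there. These correlations share the library and its depth and are given as a description.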

How the data were processed

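The authors deposited read counts per guide, not normalised, for 28 libraries. The guide sequences served as the alignment reference, and Je, BWA and R are the tools the methods name for these steps. Versions of these tools are not given in the sources used here. Value columns not used numbered 0. Members and gene lists were chosen with earlier results of these data known.

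From the deposited counts each screen was fitted on all guides with edgeR 4.0.16 (R 4.3.3), using RLE factors, glmFit and glmLRT with Benjamini-Hochberg adjustment, as the methods name them. The filter on low counts (filterByExpr) and the prior count of 0.125 were edgeR's defaults, chosen here because the methods name neither. The filter was stricter than the study's, which kept more guides in both main screens than the 1166 and 13403 here. More than 1 CPM in at least 2 libraries kept 20561 guides in the repression screens, the number the paper reports. The shares of guides called therefore belong to the filter used here. High and low libraries were replicates of their fraction. Calls required a log2 FC above 3 or below -3 and an adjusted p below 0.05. Guides outside the fit were compared by exact permutation of log2(CPM + 1) over libraries, with an exact sign-flip within sorts as an alternative. On simulated data the fits recovered 98.5% (early activation, 3215 guides), 100.0% (main activation, 1166) and 99.5% (main repression, 13403) of 200 guides changed by a log2 FC of 5. The simulated counts varied far less between libraries than the real ones, whose common dispersions in edgeR were 3.85, 3.37 and 2.43. They also gave both fractions the same mix of unchanged guides. The recovery thus checks the code and does not measure the power of the real fits.

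Guides were named from 1995 rows of the early and 461 of the main activation list. The planned match to promoter sequences could not be run without a genome. In its place, chosen after the files were seen, 1999 listed guide positions were searched within 500 bp before start codons. In the same window lay 54 of 67 guides with both a name and a position. Every named guide of the 10 genes is described, then the pathway guides with the highest and lowest log2 FC in each screen, and the 3 guides most correlated with that of MFA1. Pathway guides named by the main activation list were added with the results known. Alternatives covered the test (quasi-likelihood, DESeq2 1.42.0), scaling, filters, prior count, blocking and left-out libraries.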

Additional observations from a re-analysis of the deposited data

Results flagged for a closer look

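Single libraries stood far from the rest of their fraction in 6 of 17 groups of 4 to 8 libraries checked. The nominal rate of such flags, about 1 in 20, was not checked for counts as uneven as these. No excess over chance is therefore read from them. The STE3 guide reached 1614 CPM in the high library of round 4, replicate 1 of the main activation screens, and 681 CPM in the low library of round 3, replicate 2. MF(ALPHA)1 guide 1 reached 3035 CPM in the high and 1738 CPM in the low library of the same sort, round 2, replicate 1 of the main activation screens. It also reached 284 CPM in the low library of round 2, replicate 1 of the repression screens. The STE13 guide was seen in that repression library alone, at 47.4 CPM, so its flag was fixed in advance.

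The log2 FC of the MFA1 guide was larger under activation than under repression by 10.38 in the interaction fit. The main activation list that chose this guide used the same libraries, so the difference is a description.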

How the results depend on the processing

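Over 19 fitted or tested values and 300 alternatives, 231 kept direction and side of the threshold and 50 changed sign. The 231 include 8 for the STE13 guide, whose test could not pass. They also include 16 for the STE23 guide, which had 0 reads in every high library. Of the 287 with a test, 22 lost and 10 gained a call, 7 of the latter with the opposite sign, and the causes were not tested beyond each alternative's construction. The median log2 FC of all guides moved with scaling, from 4.68 (RLE) to 2.14 (TMM), -0.06 (DESeq2) and -0.60 (library size alone) in the main activation screens, from 0.01 to -0.47, 0.01 and -0.51 in the repression screens, and from 0.11 to -1.94, 0.10 and -2.50 in the early screen. Main activation calls were 810 enriched and 39 depleted among 1166 guides. Among the same 1166 they were 281 and 42 with DESeq2, 452 and 112 with TMM, and 22 and 276 with library size alone. They were 1650 and 140 among 20411 guides with no filter, and 1276 and 432 among 3445 with replicates summed. More than 1 CPM in at least 2 libraries gave 1983 and 247 among 14262. Repression calls went from 720 and 1812 to 3 and 1633 with quasi-likelihood, 107 and 2012 with DESeq2, 105 and 1984 with TMM, 14 and 1981 with library size alone, and 5 and 2531 without round 2, replicate 2. The depth of single libraries limits guides near the floor of 0.893 to 59.5 CPM.

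In the early screen the log2 FC of the STE3 guide was -2.31 with TMM and -3.57 with library size alone. Left-out replicates, which gave values with no test at 1 library against 1, ranged from -4.07 to 1.15 for MFA1, -8.10 to 0.94 for STE3, -8.11 to 1.07 for MF(ALPHA)1 guide 2 and -8.24 to 13.41 for AGA1 guide 2.

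In the main activation screens MFA1 was no longer past both thresholds with library size alone, where its 3.48 was above 3 but its adjusted p was not below 0.05. STE3 was not past both with DESeq2 (0.26), library size alone (-0.28), no filter (6.26, adjusted p = 0.0628), round 4 left out (-0.19) or replicates summed within a round (5.03, adjusted p = 0.0572), and left-out sorts ranged from -0.070 to 7.04. AGA2 was -0.17 with DESeq2, -2.58 with library size alone and -0.16 with round 2 left out, and left-out sorts ranged from -0.50 to 2.93. STE20 guide 3 was -1.44 with DESeq2, -1.73 with TMM, -4.79 with library size alone and -1.30 with round 4 left out, and left-out sorts ranged from -1.53 to 1.59. MF(ALPHA)1 guide 1 entered edgeR fits at 4.22 with no filter or either CPM filter (enriched with the stricter one, adjusted p = 0.0460), 4.00 with round 3 and 4.27 with round 4 left out (enriched in the latter, 0.0433), 3.22 with replicates summed, 4.33 without replicate 1 of rounds 3 and 5, an alternative chosen after seeing the data (enriched, 0.0402), and 4.14 to 4.35 over the 3 left-out sorts in which it entered (enriched in each, 0.0214 to 0.0287), against an exact difference of -2.53. Exact tests with each sort left out were also chosen after seeing the data. The edgeR log2 FC of MF(ALPHA)1 guide 2 was -1.57 to -1.34 in the 6 fits it entered, with no call.

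Under repression MFA1 was -0.12 with library size alone. STE3 was 0.043 with round 2 left out and -0.81 to 0.36 over left-out sorts. MF(ALPHA)1 guide 1 was -0.35 with TMM, -1.07 with library size alone, -0.71 with round 2 left out, -0.38 with replicates summed and -0.69 to 2.54 over left-out sorts. The second guide of that gene was -0.025 with TMM, -0.0056 with library size alone, -1.79 with round 1 left out and -0.16 to 0.75 over left-out sorts. AGA1 guide 3 was no longer called with quasi-likelihood (8.73, adjusted p = 0.252), TMM (5.50, 0.0643), library size alone (3.06, 0.356) or replicates summed (4.33, 0.116), had no adjusted p with DESeq2, and was -2.81 with round 2 left out and -2.94 to 9.26 over left-out sorts. The call of the STE23 guide held in all 16 alternatives, which all rest on the same high fraction with 0 reads.

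High and low libraries of the same round and replicate number deviated together little, with mean correlations of -0.05 (early), 0.04 (main activation) and 0.01 (repression). With the sort as a replicate block the early log2 FC was -0.28 for MFA1, -1.81 for STE3 and -0.88 for MF(ALPHA)1 guide 2. In the main activation screens the block gave 2.98 for MFA1, 0.92 for STE3, -0.10 for AGA2 and -0.997 for STE20 guide 3, none of them past the threshold, with 13 guides enriched and 19 depleted in all. Under repression it gave -0.43 for MF(ALPHA)1 guide 2 and -2.59 for AGA1 guide 3, neither past the threshold, with 0 guides enriched and 1295 depleted in all (10 enriched at an unadjusted p below 0.05, and 107 by DESeq2 without the block). Leaving out promoter windows shared with a neighbouring gene left MF(ALPHA)1 guide 2 as the only position-placed guide of the 10 genes, and the RCE1 guide and AGA1 guide 3 among the pathway genes.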
